A study of Arabidopsis thaliana with 4 samples.

Results

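Protein disaggregases of the HSP101/ClpB type and the co-chaperones that work beside HSP70 and HSP90 were followed in Arabidopsis thaliana seedlings exposed to reactive leaf volatiles. The set was a fixed list of 10 loci, out of 25418 loci with a matched probe on the array: HSP101 (AT1G74310), CLPB4 (AT2G25140), CLPB3 (AT5G15450), HOP1 (AT1G12270), HOP2 (AT1G62740), HOP3 (AT4G12400), ROF1 (AT3G25230), ROF2 (AT5G48570), BAG6 (AT2G46240) and FES1A (AT3G09350). All 10 had a probe, and all 10 were well above background on the 4 arrays, as were 18412 genes in all. Membership was set by locus, and the list was chosen with earlier results of these data known.

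The seedlings were wild type, of the Columbia-0 ecotype, grown on peat pellets at 23 °C in cycles of 14 h light and 10 h dark. In every group they also had 3 days at 4 °C. They stood in a closed box at 25 °C in the light for 30 min with acetonitrile, the solvent and the control, or with (E)-2-pentenal, 3-hepten-2-one or crotonaldehyde in acetonitrile, at a nominal 10 µM. Crotonaldehyde and the longer (E)-2-pentenal carry an aldehyde group beside a double bond, whereas 3-hepten-2-one carries a ketone group there. Each group was 1 one-colour Agilent array of pooled RNA from at least 6 plants, so no value has a replicate, and no p-value or standard error between plants can be given. The comparisons ask how far each volatile moved these transcripts from the solvent control, and whether the volatiles differed from each other.

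Heat and other treatments that unfold proteins leave aggregates in plant cells. HSP101 is the cytosolic ring-shaped ATPase that threads proteins out of such aggregates, handing them to HSP70 for refolding, and Arabidopsis plants without it cannot acquire thermotolerance. CLPB3 and CLPB4 are its relatives in the chloroplast and the mitochondrion. HOP proteins link HSP70 to HSP90 and pass clients from one to the other. ROF1 and ROF2 are peptidyl-prolyl isomerases, of which ROF1 binds HSP90. BAG6 is a calmodulin-binding protein with the BAG domain that docks on HSP70. FES1A binds cytosolic HSP70 and keeps it from being degraded.

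The array is a measure of intensity. Levels below are the processed signal of a gene's brightest probe divided by the 75th percentile of its array, and folds are ratios of these levels. A fold of 2 was the rule for calling a gene higher or lower. Where 3 values follow each other for a gene or list, they are for (E)-2-pentenal first, then 3-hepten-2-one, then crotonaldehyde, and 4 values start with acetonitrile. Levels of different genes are not set against each other, since probes differ in brightness. The scanner software's modelled error was 10.0% to 10.3% of the signal for every probe of the 10 genes, which gives an error of 0.20 on the log2 scale for a difference between 2 arrays. Repeat spots of the same probe differed less, with an SD of 0.081 to 0.117 for 17 repeated probes. Neither measure includes variation between plants. Slide 1, read in scan 1, held every array except that of crotonaldehyde, which was on slide 2 in scan 2, so that slide and crotonaldehyde cannot be told apart. The 75th percentile was 1048 on the crotonaldehyde array and 1518 to 1667 on the others. All 5 green tissue markers were well above background on every array, with a summed level of 1174 to 1484, although PSAD-2 (AT1G03130) had a log2 difference of -1.68 after crotonaldehyde. Of 3 flower markers 2, 3, 2 and 1 were well above background, and both of 2 seed markers were so on the 3-hepten-2-one array alone. Root markers numbered 5 of 5 above background after acetonitrile, with a summed level of 18.6, 4 of 5 after (E)-2-pentenal at 9.098, 4 of 5 after 3-hepten-2-one at 32.4 and 3 of 5 after crotonaldehyde at 0.50. PYK10 (AT3G09260) made up most of that sum on every array except that of crotonaldehyde, where its log2 difference was -8.30. CASP2 (AT3G11550) was at -1.36 there. The part of these shifts in the results below was not tested.

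After each volatile 9 of the 10 genes were at least 2-fold higher than in the control and none was at least 2-fold lower. Only HOP1 stayed within 2-fold. The median fold of the 10 genes was 18.5 after (E)-2-pentenal, 17.0 after 3-hepten-2-one and 32.7 after crotonaldehyde. On the log2 scale these medians were 4.21, 4.09 and 5.03, beside medians of -0.06, -0.07 and 0.01 over all 18412 genes. The background after (E)-2-pentenal was 4.50% of all genes past 2-fold higher and 1.87% past 2-fold lower. After 3-hepten-2-one the shares were 6.12% higher and 4.57% lower, or 1126 and 842 genes, which became 954 and 1122 with the authors' scaled values. After crotonaldehyde they were 8.89% higher and 15.2% lower, or 1637 and 2801 genes, which became 2868 and 2014 when arrays were scaled by their medians. The count of 9 members held under both of these settings for every volatile. The 3 comparisons share the control array.

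**Figure D1:**
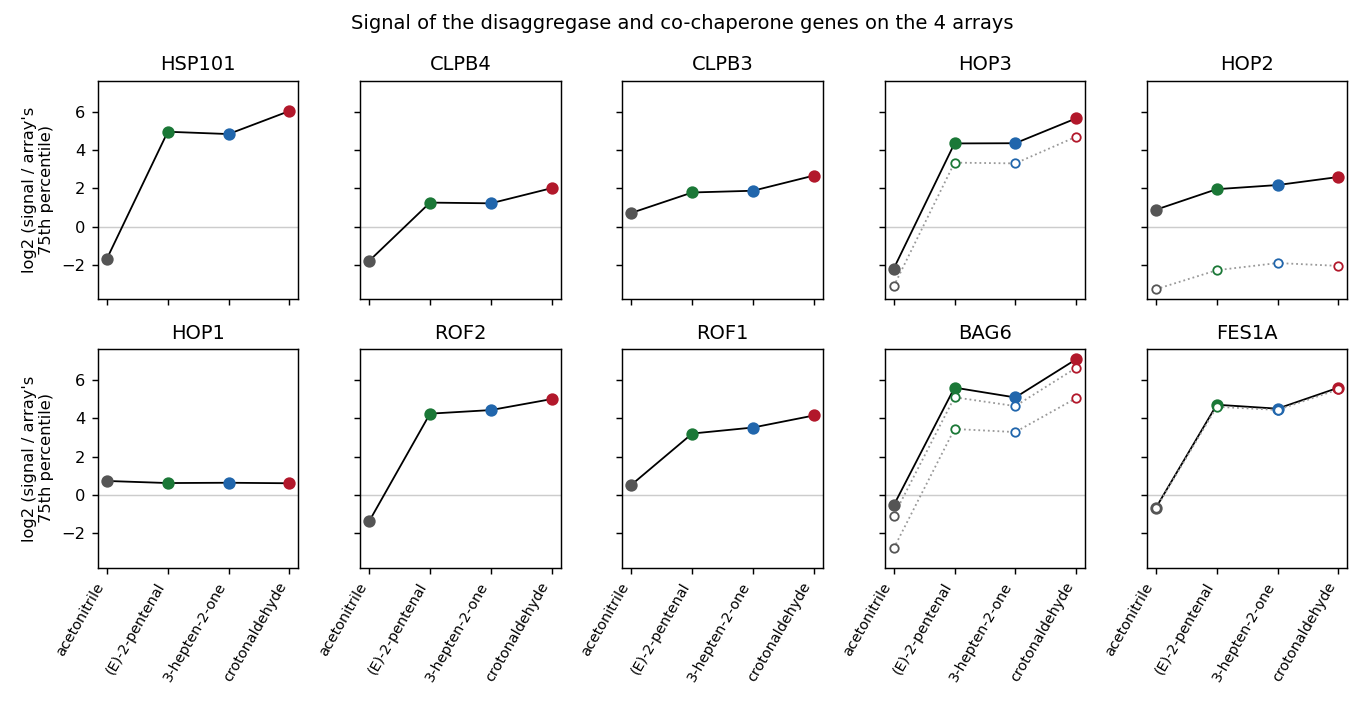
Signal of each gene on the 4 arrays, as log2 of the signal over the array's 75th percentile. Filled points are the brightest probe of the gene, open points its other probes, and lines join the spots of 1 probe. Each point is 1 array, and the order of arrays has no meaning. HOP1 lies at one height on all 4 arrays, while the control point lies below the others for the remaining genes.

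**Figure D2:**
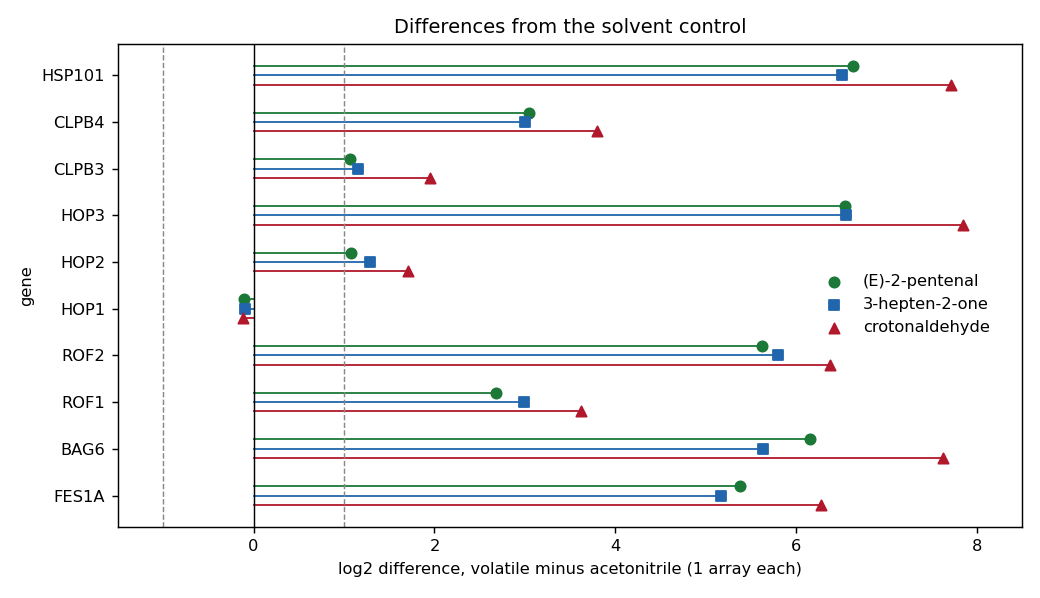
The log2 difference of each volatile from acetonitrile for the 10 genes, with dashed lines at 2-fold higher and lower. Each point compares 1 array with 1 array. The genes run from HOP1 near 0 to HOP3, HSP101 and BAG6 between 5.63 and 7.85, and the crotonaldehyde point is the highest for 9 of the 10 genes.

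Among the disaggregases, HSP101 had a level of 0.32 after acetonitrile, 31.1 after (E)-2-pentenal, 28.6 after 3-hepten-2-one and 65.8 after crotonaldehyde. The control array was low and all 3 treated arrays were high, with crotonaldehyde, whose array was on slide 2, above the other volatiles. The folds were 98.6, 90.66 and 209, which placed HSP101 at rank 8, 9 and 10 of the 18412 genes ordered by difference from the control. The control signal was 525, and the faintest spot called above background on that array had 15.8.

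CLPB4, the mitochondrial relative, had levels of 0.29, 2.39, 2.33 and 4.03. It was 8.2-fold, 8.0-fold and 13.9-fold higher than the control. CLPB3, the chloroplast relative, had levels of 1.65, 3.45, 3.67 and 6.35, or 2.1-fold, 2.2-fold and 3.9-fold higher. CLPB3 passed the 2-fold rule narrowly after (E)-2-pentenal, and normexp background correction put its log2 difference at 0.996, just short of the rule. The 3 disaggregases therefore kept the same order after every volatile, the cytosolic gene first, the mitochondrial gene next and the chloroplast gene last. The fold of HSP101 was 12.0, 11.3 and 15.0 times that of CLPB4, and the fold of CLPB4 was 3.9, 3.6 and 3.6 times that of CLPB3. Each gap exceeds the modelled spot error several times over.

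The 7 other Clp ATPases on the array moved far less than HSP101. They include CLPB2 (AT4G14670), the chloroplast proteins CLPC1, CLPC2 and CLPD and the mitochondrial CLPX proteins. None of the 7 was 2-fold higher or lower after any volatile, and their differences ran from -0.88 to 0.71 on the log2 scale. Among all genes 4.50%, 6.12% and 8.89% were at least 2-fold higher and 1.87%, 4.57% and 15.2% lower. At such shares few of 7 genes would pass. CLPB2 had log2 differences of 0.06, -0.49 and -0.88, so that its gap to HSP101 on that scale was 6.57 to 8.58.

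HSA32 (AT4G21320), a heat-induced protein that works with HSP101 to prolong acquired thermotolerance, was higher as well. Its log2 differences were 3.83, 3.50 and 4.28. These lay between the differences of CLPB4 and HSP101.

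The widest gap between related genes within the set was that between HOP3 and HOP1, at 6.65, 6.64 and 7.97 on the log2 scale. HOP3 had a level of 0.22 after acetonitrile, 20.4 after (E)-2-pentenal, 20.5 after 3-hepten-2-one and 50.4 after crotonaldehyde, which is 93.1-fold, 93.8-fold and 230-fold over the control. HOP2 had levels of 1.85, 3.89, 4.51 and 6.04, and folds of 2.1, 2.4 and 3.3. HOP1 had levels of 1.67, 1.54, 1.56 and 1.53, almost the same on all 4 arrays.

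The log2 differences of HOP1 from the control were -0.11, -0.09 and -0.12, each smaller than the modelled error of 0.20. The sign after crotonaldehyde turned to 0.20 when arrays were scaled by their medians, so no direction can be given for it. The fold of HOP3 was 44.3, 38.4 and 70.4 times that of HOP2. Probes could bind transcripts of close relatives, those of HOP2 and HOP3 among them, which was not tested here.

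The second probe of HOP3, made to another RefSeq transcript of the locus, gave 87.7-fold, 85.3-fold and 224-fold, close to the first. The second probe of HOP2 was dimmer, with a control signal of 173 against 3080 for the first. It gave log2 differences of 0.99, 1.37 and 1.22 where the first gave 1.07, 1.29 and 1.71. Both HOP2 probes were higher on all treated arrays, but the second was just short of 2-fold after (E)-2-pentenal and did not place crotonaldehyde first.

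The isomerases ROF1 and ROF2 were both higher, and to unequal degrees. ROF2 had a level of 0.39 after acetonitrile, 19.0 after (E)-2-pentenal, 21.7 after 3-hepten-2-one and 32.3 after crotonaldehyde. It was 49.0-fold, 55.8-fold and 83.1-fold higher. ROF1, which in Arabidopsis binds HSP90 and prolongs the action of the heat shock factor HSFA2, had levels of 1.45, 9.28, 11.5 and 17.8, or folds of 6.4, 7.9 and 12.3. The fold of ROF2 was 7.7, 7.0 and 6.8 times that of ROF1.

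Of 9 other FKBP immunophilins, the family to which ROF1 and ROF2 belong, none was 2-fold higher or lower after any volatile. FKBP53, a nuclear histone chaperone, came closest with log2 differences of 0.41, 0.66 and 0.999, the last just under the rule. Of 8 other HSP90 co-chaperones 2 were at least 2-fold higher after each volatile and none lower. SGT1A (AT4G23570), a co-chaperone of immune receptors, had log2 differences of 2.58, 2.27 and 2.40, and AHA1 (AT3G12050), an activator of the HSP90 ATPase, 2.03, 1.99 and 2.53. The medians of the FKBP list were 0.02, -0.27 and -0.05 and those of the co-chaperone list 0.01, 0.09 and 0.18, beside -0.06, -0.07 and 0.01 over all genes. The shares of all genes at least 2-fold higher were 4.50%, 6.12% and 8.89%, and the shares lower 1.87%, 4.57% and 15.2%. Few genes of lists this short would pass at such shares.

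BAG6 had a level of 0.69 after acetonitrile, 48.9 after (E)-2-pentenal, 34.2 after 3-hepten-2-one and 136 after crotonaldehyde. It was 71.0-fold, 49.7-fold and 197-fold higher than the control. It was the 1 gene of the 10 whose brightest probe differed by over 2 modelled errors in all 3 pairs of volatiles. Its other probes gave 72.8-fold, 53.0-fold and 211-fold, and 75.5-fold, 67.5-fold and 230-fold. All 3 probes put the volatiles in the same order, although the gap between 3-hepten-2-one and (E)-2-pentenal ran from -0.51 in the brightest probe to -0.16 in the dimmest, the latter within the modelled error.

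FES1A had levels of 0.63, 26.3, 22.8 and 48.7, which is 41.6-fold, 36.1-fold and 77.1-fold higher. Its second probe gave 39.6-fold, 35.4-fold and 74.4-fold. Its relatives did not follow. FES1B (AT3G53800) had log2 differences of 0.05, -1.27 and -0.07, past 2-fold lower after 3-hepten-2-one alone, and FES1C (AT5G02150) -0.10, -0.65 and -0.46. The fold of FES1A was thus 40.1, 86.7 and 80.6 times that of FES1B.

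A further 14 genes were the other BAG proteins and HSP70 nucleotide exchange factors, which reset HSP70 by releasing its ADP. Among these 14, 2, 2 and 3 passed 2-fold on the higher side and 0, 1 and 2 on the lower. Of all genes, 4.50%, 6.12% and 8.89% passed on the higher side and 1.87%, 4.57% and 15.2% on the lower. BAG5 (AT1G12060), a mitochondrial BAG protein, had log2 differences of 1.18, 1.44 and 1.62 and HSP70-15 (AT1G79920), of the HSP110 type, 1.46, 1.60 and 2.25. AR192 (AT4G26780), a GrpE-type factor, passed the rule after crotonaldehyde, at 2.07, with 0.68 and 0.79 after (E)-2-pentenal and 3-hepten-2-one. On the lower side BAG2 (AT5G62100) was at -1.94 and BAG3 (AT5G07220) at -1.21 after crotonaldehyde, while BAG6 was at 7.63.

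Over the 4 lists of relatives and fellow co-chaperones together, 4, 4 and 5 of 38 genes passed 2-fold on the higher side and 0, 1 and 2 on the lower, with medians of -0.03, 0.06 and 0.03 on the log2 scale. The share of all genes at least 2-fold higher was 4.50%, 6.12% and 8.89%, and the share lower was 1.87%, 4.57% and 15.2%.

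**Figure D3:**
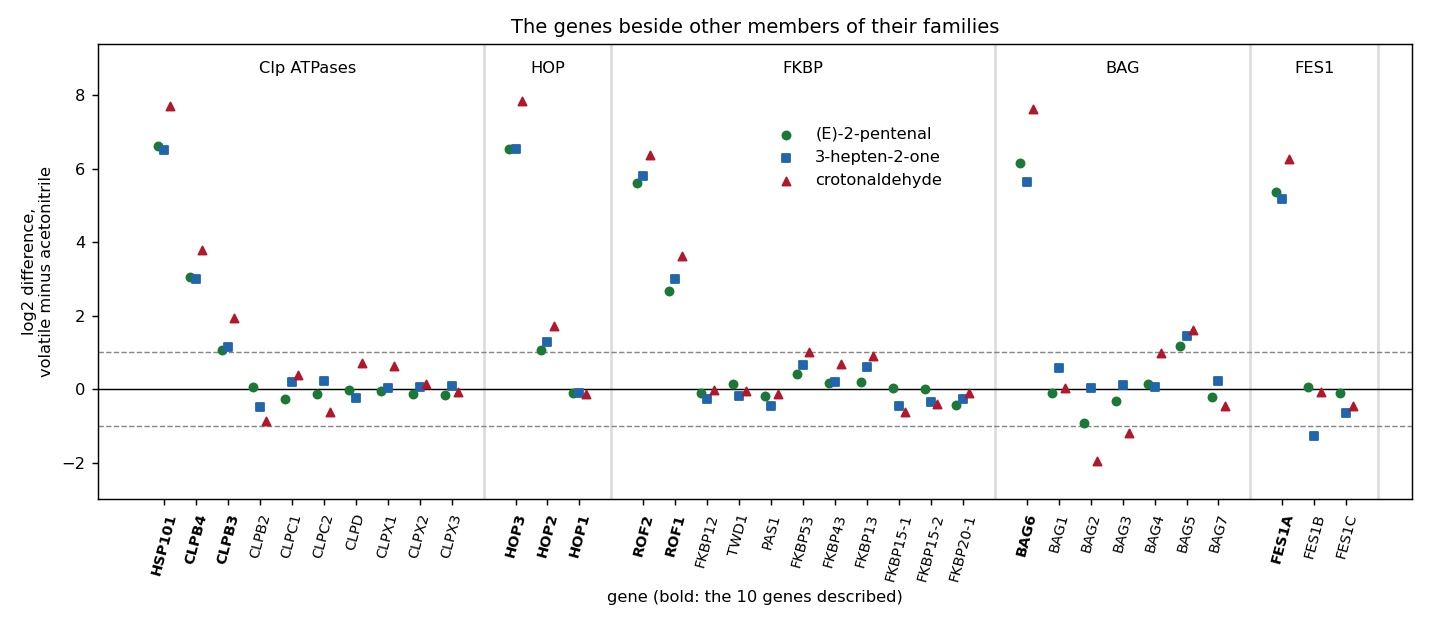
The log2 difference from acetonitrile for the genes described, in bold, and other members of their families, with dashed lines at 2-fold. Each point compares 1 array with 1 array. All bold genes but HOP1 lie above the upper dashed line. Of the other genes drawn, BAG2, BAG3, BAG5 and FES1B have a point outside the dashed lines.

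The chaperones that these proteins serve were measured on the same arrays. Of 11 HSP70 and J-domain genes 6, 7 and 8 were at least 2-fold higher, with medians of 1.67, 1.65 and 2.22 on the log2 scale, led by HSP70B (AT1G16030), HSP70-4 (AT3G12580), MTHSC70-2 (AT5G09590), HSC70-2 (AT5G02490) and HSC70-3 (AT3G09440). HSP70B had log2 differences of 6.05, 4.88 and 7.86. HSP70-4, a heat-induced cytosolic HSP70, had log2 differences of 5.90, 5.95 and 6.61. The mitochondrial MTHSC70-2, which shares its compartment with CLPB4, had 2.34, 2.20 and 3.22. MTHSC70-1 (AT4G37910), also mitochondrial, stayed within 2-fold, at 0.18, 0.41 and 0.97. Of 7 HSP90 genes 4, 6 and 6 were higher, with HSP90.1 (AT5G52640), the heat-induced cytosolic form, at 5.80, 5.71 and 7.02. HSP90.2, HSP90.3 and HSP90.4, the other cytosolic forms, were between 2.11 and 3.11. None of either list was 2-fold lower. Over all genes the medians were -0.06, -0.07 and 0.01, with 4.50%, 6.12% and 8.89% at least 2-fold higher and 1.87%, 4.57% and 15.2% lower. Sequences within each of these families are close, and signals can mix between members.

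The 8 reference genes, housekeeping genes often used for scaling, stayed within 2-fold after each volatile. Their medians were -0.06, 0.01 and -0.05, with a range of -0.85 to 0.90 on the log2 scale. Few of 8 genes would pass at the shares of all genes given above.

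**Figure D4:**
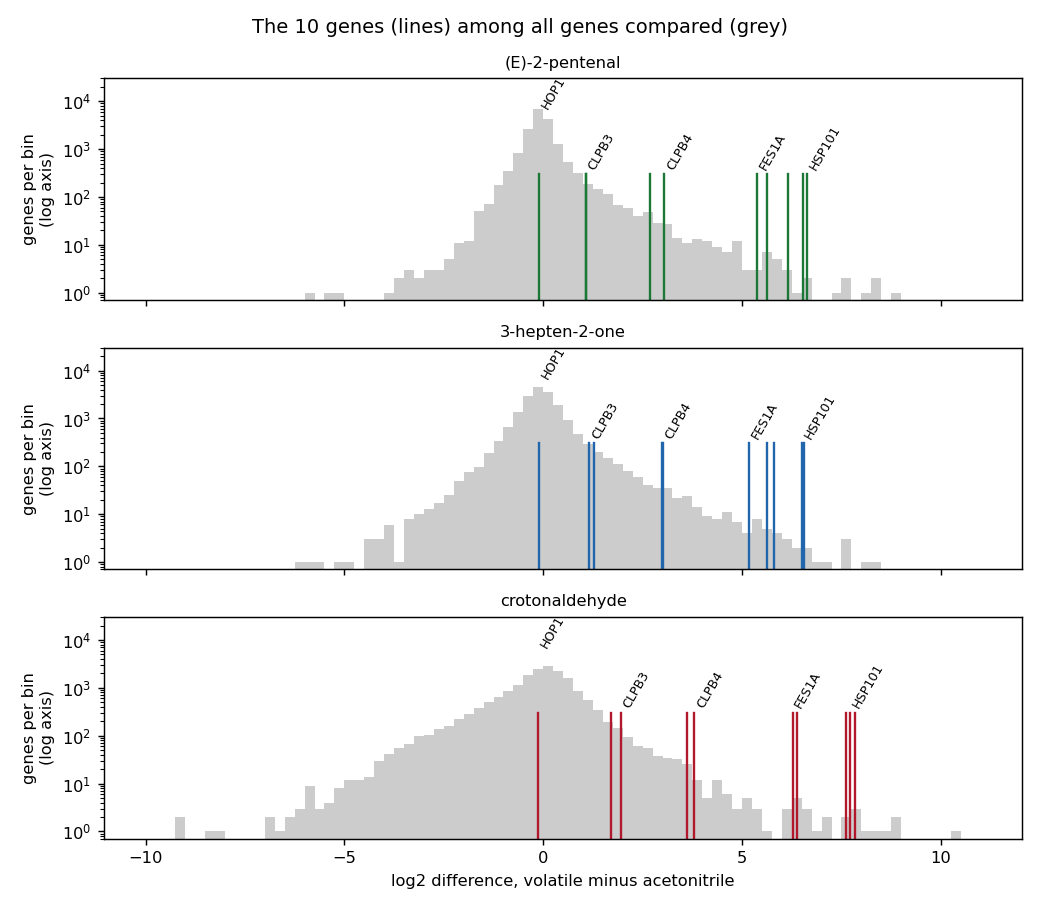
Histogram of the log2 difference from acetonitrile over the 18412 genes that passed the background filter, with the number of genes on a log axis, and the 10 genes as coloured lines of arbitrary height. HSP101, HOP3, BAG6, ROF2 and FES1A lie in the far right tail, among the 32 highest genes after every volatile, and HOP1 lies in the centre.

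Within the whole set of genes, 5 of the 10 were near the top after every volatile. HOP3 ranked 9, 8 and 9, BAG6 11, 22 and 11, ROF2 20, 18 and 19, and FES1A 27, 32 and 21. CLPB4 ranked 132, 164 and 70 and ROF1 177, 167 and 80. CLPB3 and HOP2 were further down, at rank 774 and 769 after (E)-2-pentenal, and HOP1 was in the middle at 10651.

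The gene whose 3 differences lay nearest to those of HSP101 was HOP3, at a Euclidean distance of 0.17 in log2 units over the 18412 genes, less than the modelled error of 1 difference. The next were AT5G54165 at 0.93, BAG6 at 0.99, HSP70T-2 (AT2G32120) at 1.25 and HSP90.1 at 1.34. The nearest gene to HOP3 was HSP101, to BAG6 HSP70T-2 at 0.61, to FES1A ATERDJ3A (AT3G08970) at 0.31, to ROF2 TIN1 (AT5G64510) at 0.25, to ROF1 SR45a (AT1G07350) at 0.20 and to CLPB4 AT5G45630 at 0.26. For CLPB3 it was BGAL16 (AT1G77410) at 0.087, for HOP2 AT1G74330 at 0.17 and for HOP1 ESP1 (AT1G73840) at 0.014. These distances rest on 4 arrays with a shared control, and are smaller where genes are crowded near 0.

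The volatiles were then set against each other in 3 pairs at the same nominal dose and time. On the shared slide the ketone 3-hepten-2-one and the aldehyde (E)-2-pentenal gave similar levels of these genes. None of the 10 differed by 2-fold, where 3.86% of all genes were higher after the ketone and 4.21% lower. At such shares few of 10 genes would pass, so this count does not set the 10 apart. The median log2 difference, ketone minus aldehyde, was 0.01 over the 10 genes. For HSP101 it was -0.12, with an interval of 2 modelled spot errors from -0.53 to 0.29, for HOP3 0.01 (-0.40 to 0.42), for ROF1 0.31 (-0.09 to 0.72) and for CLPB4 -0.04 (-0.45 to 0.37). BAG6 was the 1 gene of the 10 whose difference was over 2 modelled errors, at -0.51 (-0.92 to -0.11), lower after the ketone. Its dimmest probe gave -0.16, within the modelled error. Of all 18412 genes, 3712 differed by at least 1.5-fold in this pair, a wider gap than the 1.43-fold of BAG6, so BAG6 does not stand out by size. Without replicates these intervals leave out variation between plants, and they do not show that the 2 compounds act alike.

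Crotonaldehyde, the shorter aldehyde, gave higher levels than (E)-2-pentenal for 9 of the 10 genes. Taken as (E)-2-pentenal minus crotonaldehyde, the log2 difference was -1.48 for BAG6, -1.31 for HOP3 and -1.08 for HSP101, the 3 genes past 2-fold, and the median over the 10 was -0.89. Of all genes 5.56% were at least 2-fold lower in this direction and 13.6% higher, with a median of -0.03. Scaling by array medians turned the 2510 higher and 1023 lower genes into 1852 and 1991, and counted 8 members past 2-fold in place of 3. HSP101 was under the rule with quantile normalization, at -0.86, with cyclic loess, at -0.96, and with the authors' scaled values, at -0.997. HOP1 differed by 0.01 (-0.40 to 0.42).

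The ketone and crotonaldehyde differed by at least 2-fold in 4 of the 10 genes, all lower after the ketone. The log2 differences, 3-hepten-2-one minus crotonaldehyde, were -1.99 for BAG6, -1.30 for HOP3, -1.20 for HSP101 and -1.10 for FES1A. CLPB3 and CLPB4 were both at -0.79, ROF1 at -0.63, ROF2 at -0.57, HOP2 at -0.42 and HOP1 at 0.03. The median was -0.79, beside -0.05 over all genes, of which 9.72% were at least 2-fold lower and 15.8% higher, or 1790 and 2903 genes. Median scaling turned these into 3137 and 2197. Both sets of differences from crotonaldehyde cross the slides, so slide, scan and compound cannot be told apart in them.

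**Figure D5:**
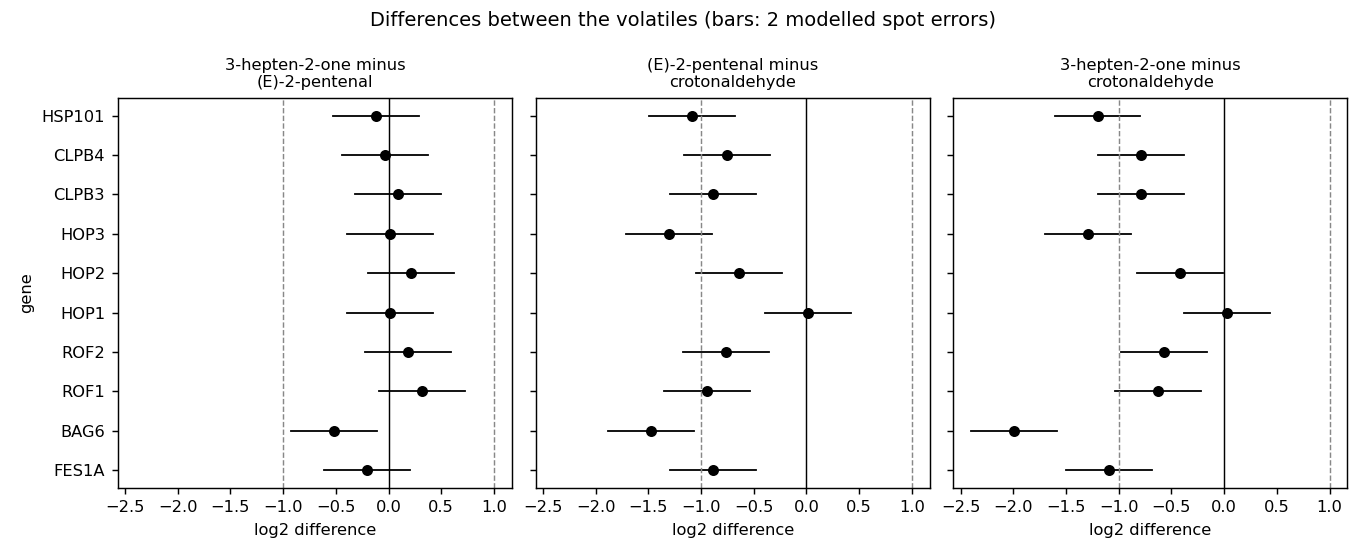
The log2 difference between volatiles for each gene, 1 array against 1 array, with bars of 2 modelled spot errors and dashed lines at 2-fold. In the pair on the shared slide all bars but that of BAG6 cross 0. In the pairs with crotonaldehyde, on another slide, all points but that of HOP1 lie below 0.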

How the data were processed

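Each group gave 1 Cy3-labelled RNA sample and 1 Agilent array. Per the file headers, the authors' scanner files come from Agilent Feature Extraction 10.10.1.1, whereas version 9.1 stands in the submitters' processing notes. The processed signal is a linear intensity, background-subtracted within each array per the file headers. The deposited columns for modelled error, median spot signal and median local background are also intensity. The other deposited columns used are flags coded 0 or 1, for spots above background, saturated spots and outliers. No non-control spot was saturated. The authors' deposited value table holds the same intensity times 1 constant per array, 1.38 to 1.98, set by a rule that no label or header states.

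The log2 of the processed signal minus the array's 75th percentile was taken, outlier spots were left out, and a gene took its brightest probe by mean signal. Spots were matched to loci by RefSeq transcript with a TAIR10.1 gene table, used for names and gene order only: 34476 of 43803 spots matched 1 locus. The array design names TAIR10, so no coordinates are given, and sequences were not used here. With 1 array per group no test was possible.

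The members and other lists were chosen with earlier results of these data known. Named genes were the 10 members, for each volatile the up to 4 genes of each other list with the largest differences past 2-fold, and the nearest genes. FKBP53, CLPB2, CLPC1, CLPC2, CLPD, FES1C, BAG3 and MTHSC70-1, and the genes next to members, were named beyond that rule, after their values were seen. Alternatives were normexp (offset 50, median spot signal and background), quantile, median and cyclic loess scaling, the authors' values, other filters and probe summaries, and rules of 1.5-fold and 4-fold. The scaling and the 2-fold rule were tested on data simulated from the control array, with few spots changed. Locus matching, outlier removal and probe choice were not part of that test, and no shift as wide as that after crotonaldehyde was simulated. Python 3.11.15, pandas 2.3.3, R 4.3.3 and limma 3.58.1 were used.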

Additional observations from a re-analysis of the deposited data

How the results depend on the processing

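Against the control, the single-gene values under the alternatives kept direction and side of 2-fold in 89 of 90 cases after (E)-2-pentenal, 90 of 90 after 3-hepten-2-one and 79 of 80 after crotonaldehyde, the exceptions being CLPB3 after (E)-2-pentenal and HOP1 after crotonaldehyde as given above. Between volatiles they did so in 83 of 90 cases for 3-hepten-2-one minus (E)-2-pentenal, 69 of 80 for (E)-2-pentenal minus crotonaldehyde and 77 of 80 for 3-hepten-2-one minus crotonaldehyde. No called difference changed sign in any comparison. The count of members past 2-fold was 9 after each volatile under every scaling, filter and probe summary tried, other than 8 with normexp after (E)-2-pentenal, and 7 with the 4-fold rule. Between volatiles, the 3 members past 2-fold for (E)-2-pentenal minus crotonaldehyde became 2 with quantile, cyclic loess and the authors' values. Those 3 became 5 with normexp, 8 with median scaling, 9 with the 1.5-fold rule and 0 with the 4-fold rule. The 4 for 3-hepten-2-one minus crotonaldehyde became 6 with median scaling, and 7 and 0 with the 1.5-fold and 4-fold rules. Median scaling moved the median of all genes after crotonaldehyde from 0.01 to 0.33, and the authors' values moved it to -0.14, and that after 3-hepten-2-one from -0.07 to -0.19. Over all genes, 1173 passed 2-fold after (E)-2-pentenal, 1968 after 3-hepten-2-one and 4438 after crotonaldehyde. Without the filter on dim probes these became 2184, 3328 and 7817, with the 1.5-fold rule 2599, 4439 and 7819, and with the 4-fold rule 344, 520 and 1393. Between volatiles, 1486 genes passed for 3-hepten-2-one minus (E)-2-pentenal, 3533 for (E)-2-pentenal minus crotonaldehyde and 4693 for 3-hepten-2-one minus crotonaldehyde. These became 2888, 6933 and 8222 without the filter, 3712, 6974 and 8330 with 1.5-fold and 310, 894 and 1483 with 4-fold, and normexp gave 2355 for the second. A looser or stricter rule moves such counts by construction, and the cause of the other moves was not tested. No paired analysis was possible because each group has 1 array. The faintest member probe was 10.96 times the lowest signal called above background in the control. Background correction still moved the folds: with normexp the log2 difference of HOP3 went from 6.54 to 6.31 after (E)-2-pentenal and from 7.85 to 7.42 after crotonaldehyde, and that of HSP101 from 6.50 to 6.27 after 3-hepten-2-one. The single array per group limits the precision of every value.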

Other observations

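Genes next to the members on the chromosomes were examined after their values were seen. Of the 20 protein-coding genes directly before or after the 10 members in the TAIR10.1 gene order, 15 were well above background on all 4 arrays. None of these was at least 2-fold higher after (E)-2-pentenal, 1 was after 3-hepten-2-one and 4 were after crotonaldehyde, where 1 was lower. Of all genes, 4.50%, 6.12% and 8.89% were at least 2-fold higher, and 1.87%, 4.57% and 15.2% lower. The medians of the neighbours were 0.14, -0.10 and 0.03 on the log2 scale. AT1G74320, next to HSP101, had log2 differences of 0.90, 1.13 and 1.06. AT4G12410, next to HOP3 and also named SAUR35, an auxin-related small gene, had 0.85 and 0.76 after (E)-2-pentenal and 3-hepten-2-one and 4.05 after crotonaldehyde, where HOP3 had 7.85. NAC007 (AT1G12260), next to the flat HOP1, was at -2.15 after crotonaldehyde.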
